A study of Mus musculus with 15 samples.

Results

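The 9 genes described here include the inhibitors of DNA binding Id1, Id2, Id3 and Id4 and the receptors Bmpr1a and Bmpr2. The others are the signal carrier Smad1, the inhibitor Smad6 and the pseudoreceptor Bambi. They were chosen from earlier results of these arrays, the lower Id1 and Id3 signals of tumours against non-tumorous knockout livers among them, so those differences are a description, and counts of members called in comparisons with tumours are read as no more than that. All probe sets annotated to the 9 genes were taken, 18 of the 22690 on the array. All 18 passed the filter on low signals, and all 9 genes were among the 9528 tested.

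Bone morphogenetic proteins (BMPs) are secreted ligands that bring together type I receptors such as Bmpr1a and type II receptors such as Bmpr2, which then phosphorylate Smad1, Smad5 and Smad9. These SMADs enter the nucleus with Smad4 and switch on Id genes and, in hepatocytes, the iron hormone hepcidin (Hamp). They also switch on the inhibitors Smad6 and Smad7, which damp the pathway. Id proteins have a helix-loop-helix domain but no DNA-binding region, and hold E proteins away from DNA. In liver, endothelial cells make Bmp2 and Bmp6, to which hepatocytes respond.

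Mice homozygous for the Mdr2 knockout (Mdr2-KO) lack the transporter encoded by Mdr2 (current symbol Abcb4), which moves phosphatidylcholine into bile. Such mice develop chronic liver inflammation and, late in life, liver tumours. Total RNA had been extracted with Trizol from frozen liver of 3 heterozygous control mice and from 6 non-tumorous livers and 6 tumours of Mdr2-KO homozygous mice, all aged 16 months. The controls carried 1 knockout allele and were not wild type. By the labels, tumours 3 and 4 came from the mice of livers 3 and 4, tumours 5-1 and 5-2 from mouse 5, and tumours 6-1 and 6-2 from mouse 6, while livers 1 and 2 had no matched tumour. The samples are bulk tissue, in which fewer cells of a type and less RNA per cell cannot be told apart. Strain and sex are not given in the sources used here.

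Signals are intensities made with MAS5, on a linear scale without a fixed unit, and the level of one probe set cannot be set against that of another. The median signal lay between 35.8 and 51.2 over the 15 arrays, and an array's 40th percentile, used here as the line for dim probe sets, between 22.6 and 32.9. Differences are on the scale of log2(signal + 9.1), which makes the fold of a dim gene smaller than the ratio of its signals. The ratio of 3' to 5' actin signal, a sign of RNA quality, was 2.55 to 3.37 in the controls, 1.74 to 2.74 in the knockout livers and 1.51 to 2.06 in the tumours. For Abcb4 itself, the log2 change from controls to knockout livers was -1.89 ± 0.36 SE, with signals of 778.9 to 1006.4 in the controls and 177.4 to 305.7 in the knockout livers. Tumours 5-1, 5-2, 6-1 and 6-2 lay between 122.5 and 237.7. The libraries labelled tumour 3 (397.1) and tumour 4 (681.1) were above every knockout liver and below every control. The own liver of tumour 4 had 177.4. Whether tumour 4 is as labelled is not known, and the cause of its Abcb4 signal was not tested. The names tumour 3 and tumour 4 below mean the libraries so labelled; as they also held the lowest Id1 signals, the main values are given without them too. The sum of the 7 measured hepatocyte markers (Alb, Apoa1, Serpina1c and others) lay between 59685 and 96836 on the 15 arrays, so the liver label held for all of them.

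Id1, the Id gene most often used as a readout of BMP signalling, had its lowest signals in the tumours. The controls 1 to 3 measured 263.7, 280.8 and 224.5. The 6 knockout livers measured 242.9, 660.1, 643, 297.9, 478.8 and 219.2 in the order of their numbers. Livers 2, 3, 4 and 5 were thus above every control, liver 4 narrowly, while liver 1 lay within the control range and liver 6 just below it. Tumours 3, 4, 5-1, 5-2, 6-1 and 6-2 measured 47.2, 45, 100.2, 157.2, 154.4 and 107.5. No tumour reached the lowest liver of either group. Id1 was 3.90-fold lower in tumours than in knockout livers (log2 change -1.96 ± 0.32 SE, n = 6 and 6) and 2.61-fold lower than in the controls (-1.39 ± 0.39 SE, n = 6 and 3). Between knockout livers and controls the log2 change was 0.58 ± 0.39 SE. Without tumours 3 and 4 the changes of the tumours were -1.54 and -0.97.

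Id3, which often overlaps Id1 in function and in the cells that make it, had the same order of groups. Controls 1 to 3 measured 329.1, 484.3 and 325.9, and knockout livers 1 to 6 measured 526.7, 755.7, 772, 584.2, 853.3 and 489.5. Each knockout liver was above each control, with 489.5 in liver 6 against 484.3 in control 2 as the narrowest gap. Every knockout liver was above every control in 763 of the 9528 genes tested, and in 2 of the 9 members, Id3 and Bambi. The tumours, in the same order as above, measured 118.3, 134.3, 173, 343.1, 350.2 and 272.2, all below the lowest knockout liver. Tumours 5-2 and 6-1 lay within the control range. Id3 was 2.96-fold lower in tumours than in knockout livers (log2 change -1.57 ± 0.25 SE), and its log2 change in knockout livers against controls was 0.78 ± 0.31 SE. Without tumours 3 and 4 the first of these was -1.22.

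Id2, which binds E proteins and also the retinoblastoma protein, differed from Id1 and Id3 in the knockout livers, where its mean was not above that of the controls. Its brightest probe set measured 1078.3, 1199.5 and 1283.1 in the controls and between 917 and 1408 in the knockout livers, with a median of 985.85. The log2 change between these groups was -0.16 ± 0.30 SE (n = 6 and 3, limma adjusted p = 0.846). Tumours 3, 4, 5-1, 5-2, 6-1 and 6-2 measured 345.5, 334.1, 232.2, 678.4, 823.1 and 574.6. All 6 were below every liver of both groups, and tumour 5-1 was the lowest. The fold was 2.31 against the knockout livers and 2.58 against the controls, and without tumours 3 and 4 the log2 changes were -1.005 and -1.16. Both other Id2 probe sets were lower in knockout livers than in controls, by means of -0.39 and -0.44 on the log2 scale. On the second set every knockout liver (424.5 to 812.6) was below every control (815.5 to 852), as in 646 of the 9528 genes on their main sets. Both were also lower in tumours than in knockout livers, by means of -0.58 and -0.72 on the log2 scale. On the second set the groups overlapped, with 250.2 to 659.3 in tumours and 424.5 to 812.6 in knockout livers. On the third they did not, with 23.8 to 35.1 against 39.2 to 62.3, though only 2 of the 6 tumours were above their array's 40th percentile there.

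Id4, known mainly from the nervous system and mammary gland, was dim on part of the arrays. On its 3 probe sets, 6, 6 and 5 of the 6 knockout livers were above their array's 40th percentile. For the tumours these counts were 3, 3 and 0 of 6, and for the controls 2, 1 and 2 of 3. Its main probe set measured 34.8, 34.1 and 28 in the controls, 57.7, 58.7, 124.2, 31.5, 80.1 and 39.8 in knockout livers 1 to 6, and 51, 14.6, 18.2, 44.9, 44.9 and 28.4 in the tumours. Livers 3 and 5 were the high samples, and the groups overlapped. The mean was higher in the knockout livers than in the controls by 0.74 ± 0.36 SE on the log2 scale (n = 6 and 3, limma adjusted p = 0.334), and lower in tumours than in those livers by a log2 change of -0.77 ± 0.30 SE. The 2 other Id4 sets gave larger differences between tumours and knockout livers, -1.81 and -1.51, and disagreed with the main set over tumour 3. That tumour had the highest tumour signal on the main set, 51, but 1.2 and 9.3 on the others, and on the second set tumours 4 and 5-1 stood at 1.3 and 0.7.

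**Figure D1:**
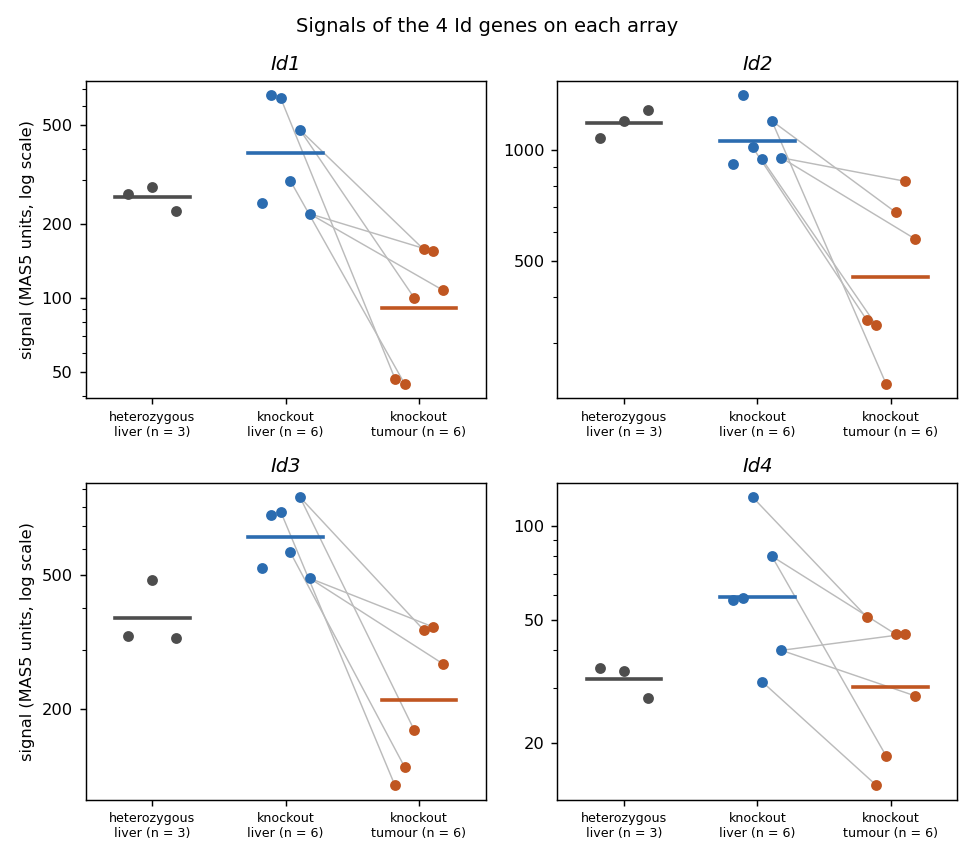
Signal of the main probe set of each Id gene on every array (log axis, MAS5 units): points are samples, horizontal bars are geometric means of a group, and grey lines join each tumour to the liver of the same mouse. For Id1, Id2 and Id3 all 6 tumours lie below all 6 knockout livers, and tumours 3 and 4 of Id1 are lowest at 47.2 and 45.

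The start regions of Id2 and Id3, whose tumour signals lay below those of all knockout livers, and of Hamp are shown because these genes are known targets of BMP SMADs. The sequences are the 250 bases before the annotated RefSeq start (GRCm38.p6), on the gene's strand. Id2 lies at chr12:25096093-25096342 (minus strand), Id3 at chr4:136143572-136143821 (plus strand) and Hamp at chr7:30944030-30944279 (minus strand). Capitals mark GGCGCC and GGAGCC, short GC-rich elements known to be bound by SMAD complexes, on either strand (GGAGCC reads GGCTCC on the other).
Id2: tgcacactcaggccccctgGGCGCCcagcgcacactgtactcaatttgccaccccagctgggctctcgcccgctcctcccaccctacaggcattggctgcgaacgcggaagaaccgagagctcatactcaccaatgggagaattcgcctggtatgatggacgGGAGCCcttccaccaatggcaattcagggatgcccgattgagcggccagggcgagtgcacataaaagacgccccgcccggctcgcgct
Id3: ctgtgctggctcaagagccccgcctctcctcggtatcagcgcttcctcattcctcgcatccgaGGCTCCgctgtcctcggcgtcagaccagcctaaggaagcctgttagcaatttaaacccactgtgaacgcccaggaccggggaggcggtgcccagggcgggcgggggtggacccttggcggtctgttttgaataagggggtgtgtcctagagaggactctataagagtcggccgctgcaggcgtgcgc
Hamp: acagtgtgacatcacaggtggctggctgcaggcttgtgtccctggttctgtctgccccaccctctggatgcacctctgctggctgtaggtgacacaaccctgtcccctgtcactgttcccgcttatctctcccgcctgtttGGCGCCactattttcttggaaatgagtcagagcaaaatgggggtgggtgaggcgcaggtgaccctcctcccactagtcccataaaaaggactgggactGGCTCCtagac

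In the Id2 window GGCGCC begins 231 bases and GGAGCC 88 bases before the start. The Id3 window holds GGAGCC, read on the other strand, 187 bases before it, and no GGCGCC. In the Hamp window they begin 109 and 11 bases before the start. Of the 7 members with a window used here (all but Id1 and Bambi), 4 held GGCGCC (Id2, Id4, Bmpr1a and Bmpr2) and 4 held GGAGCC (Id2, Id3, Id4 and Smad6). Among all 32851 windows of this length, 9.59% held GGCGCC and 26.0% held GGAGCC. The windows of the response genes Hamp2 and Atoh8 held neither. A match describes the letters of the window and is not a measured binding site.

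Smad6 is made in response to BMPs and blocks type I receptors and Smad1. It measured 62, 73.9 and 109.1 in the controls and 62.5, 80.2, 142.6, 82.5, 91 and 54.7 in knockout livers 1 to 6. These groups covered much the same range (log2 change 0.04 ± 0.31 SE, n = 6 and 3, limma adjusted p = 0.971). The tumours measured 40.7, 19.6, 41.3, 58.9, 42.8 and 75.1, and 6-2, the highest, lay within the range of the livers. The difference from the knockout livers was -0.79 ± 0.25 SE (log2). Tumour 4, with 19.6, had the lowest Smad6 signal of all 15 arrays.

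Bambi resembles a type I receptor without a kinase and blocks signalling; it too can be induced by BMPs. The controls measured 37.7, 21.7 and 33.1 and the knockout livers 54.9, 47.9, 96.1, 38.8, 67.5 and 45. Each knockout liver was above each control, as in 763 of the 9528 genes tested. The margin was narrow, at 38.8 against 37.7. The log2 change was 0.73 ± 0.35 SE (n = 6 and 3, limma adjusted p = 0.325). The tumours measured 14.9, 10, 60.8, 25.7, 18.8 and 24.1. All but 5-1 were below the lowest knockout liver, and 5-1 was the one tumour above its array's 40th percentile, so the tumour values of Bambi are mostly at background. The difference from the knockout livers was -1.03 ± 0.29 SE (log2), a value that depends on the constant and ran from -1.35 to -0.70 over the settings tried.

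Among the members that receive and carry the signal, Smad1 and Bmpr1a differed little between tumours and knockout livers on their main sets. Smad1, phosphorylated by the receptors, ranged from 105.8 to 158.5 in the controls, from 71.6 to 155.8 in the knockout livers (median 111.25) and from 62 to 152.9 in the tumours (median 97.8), with wide overlap. Its log2 change was -0.26 ± 0.26 SE in knockout livers against controls (n = 6 and 3, limma adjusted p = 0.681) and -0.12 ± 0.21 SE in tumours against knockout livers. The second Smad1 set gave -0.18 and -0.05. Bmpr1a, a type I receptor, ranged from 54.8 to 105 in the knockout livers and from 71.3 to 142.8 in the tumours on its main set, a log2 change of 0.21 ± 0.18 SE. Against the controls, which measured 80 to 105.2, the knockout livers differed by -0.15 ± 0.22 SE (n = 6 and 3, limma adjusted p = 0.799). All 5 Bmpr1a sets had a tumour mean above that of the knockout livers, by 0.05 to 0.41. Against the controls the knockout livers were lower on 4 sets, by as much as -0.65, and higher on 1, by 0.33. On the set with -0.65 every knockout liver (19.1 to 34.6) was below every control (43 to 48.3). The same held for 646 of the 9528 genes on their main sets.

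Bmpr2, the BMP type II receptor, had 1 probe set, close to background. No control, 2 of 6 knockout livers and 2 of 6 tumours were above their array's 40th percentile. The controls measured 20.9, 5.3 and 2.7, the knockout livers 10.1 to 29.4 and the tumours 9.9 to 33.4. The log2 change was 0.82 ± 0.37 SE in knockout livers against controls (n = 6 and 3, limma adjusted p = 0.292) and 0.01 ± 0.31 SE in tumours against knockout livers. A level for Bmpr2 was not measurable in the controls on these arrays.

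**Figure D2:**
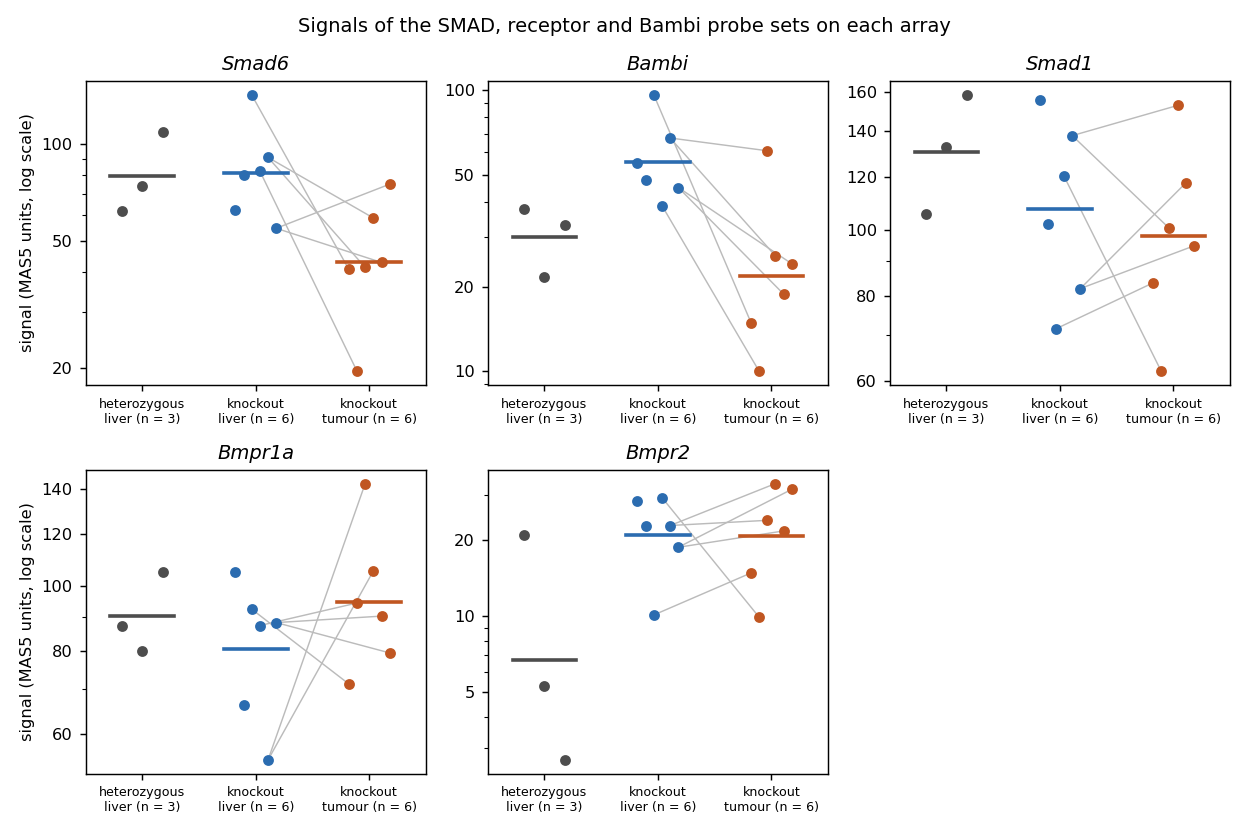
Signals of Smad6, Bambi, Smad1, Bmpr1a and Bmpr2 on every array (log axis, MAS5 units), drawn as points per sample, group geometric means as bars and grey lines joining a tumour to the liver of the same mouse. Smad6 and Bambi tumours tend to the low end, from 19.6 to 75.1 and from 10 to 60.8, while the groups of Smad1 and Bmpr1a overlap widely.

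Counted over the 9 members at a limma adjusted p under 0.05 (Benjamini-Hochberg over 9528 genes), 0 were called between knockout livers and controls, where 1.68% of all genes were called (160 genes), and 2 of the 9 had an unadjusted p under 0.05, against 15.7% of all genes. Between tumours and knockout livers 2 were called, Id1 and Id3, both lower, against 0.136% of all genes (13 genes, 2 higher and 11 lower). In 3 of the 9 (Id1, Id2 and Id3) every tumour lay below every knockout liver, as in 0.567% of all genes. Between tumours and controls 2 were called lower, Id1 and Id2, where 6.87% of all genes were called (375 higher and 280 lower). Because low tumour signals chose the members, nothing is read from any of these counts that hold tumours, nor from the medians that follow. The median log2 change of the 9 members was 0.58, -0.79 and -0.38 in the 3 comparisons in that order, and that of all genes -0.02, 0.01 and -0.02. The comparisons share samples, so these medians are not independent of each other. Leaving out 1 array at a time, the tumour comparison with knockout livers called 0 members in 10 of 15 cases: without any 1 of the controls, of livers 2, 3, 4 and 5, or of tumours 3, 4 and 6-2. The Id1 and Id3 changes themselves stayed between -2.11 and -1.78 and between -1.70 and -1.41. Against the controls, 1 member was called without livers 4 or 5, tumours 3 or 4, or control 1, and 0 without control 2 or 3, each with 3 to 5 at an unadjusted p under 0.05. Without tumours 3 and 4 together, 1 member was called in either comparison (Id3 against knockout livers, Id2 against controls). With the animal as a fixed block, which compares tumours with livers within the 4 mice, the changes were -2.03 for Id1 and -1.69 for Id3, and 0 of the 9 members and 0 of all genes were called, with 6 and 732 at an unadjusted p under 0.05.

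Set against the liver of the same mouse, Id1, Id2, Id3 and Bambi were lower in 6 of 6 tumours, and Id4 and Smad6 in 5 of 6. For Id1 the gap was widest in tumour 3, whose liver had 13.6 times its signal, and narrowest in tumour 6-1, whose liver had 1.42 times its signal. The log2 differences were -3.53 and -0.48. Id3 ran from -2.62 in tumour 3 to -0.47 in tumour 6-1, and Id2 from -2.33 in tumour 5-1 to -0.21 in tumour 6-1. With the tumours of a mouse averaged, the mean over the 4 mice was -2.15 ± 1.18 (SD, n = 4) for Id1, -1.77 ± 0.83 for Id3 and -1.26 ± 0.53 for Id2. Mouse 6 had the lowest Id1 and Id3 signals among the 6 knockout livers, and its tumours 6-1 and 6-2 had the smallest differences. Smad1 and Bmpr1a were each lower in 2 of 6 tumours and Bmpr2 in 1.

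**Figure D3:**
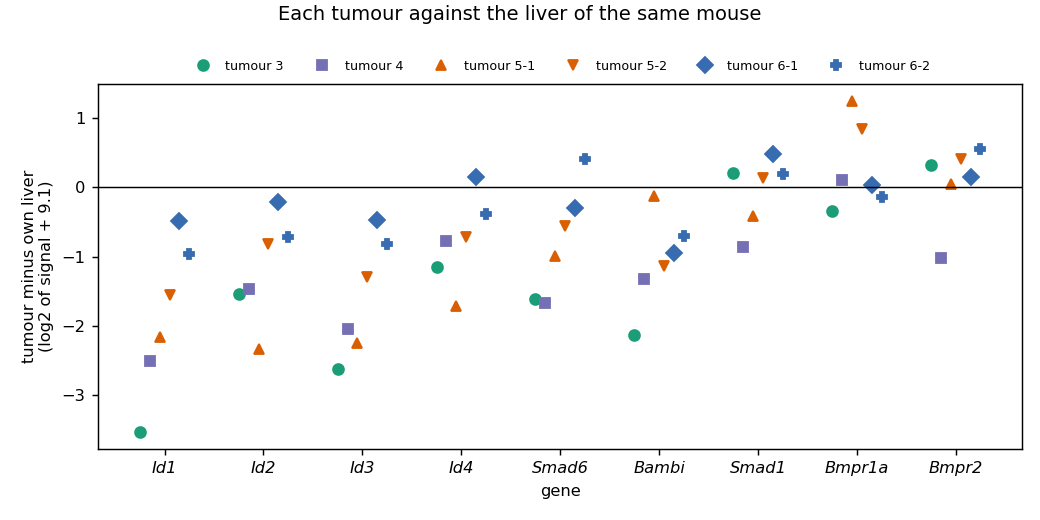
Difference between each tumour and the liver of the same mouse on the scale of log2(signal + 9.1), for the 9 genes, with 1 symbol per tumour and 1 colour per mouse, so that tumours 5-1 and 5-2, and 6-1 and 6-2, share a liver. Id1, Id2, Id3 and Bambi lie below 0 in 6 of 6 tumours, with Id1 between -3.53 and -0.48.

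Tumours of the same mouse were not alike for every gene. Tumour 5-1 had 232.2 for Id2 and tumour 5-2 had 678.4, and for Id3 they had 173 and 343.1. Bambi ran the other way, with 60.8 in 5-1 and 25.7 in 5-2. Tumours 3, 4 and 5-1 held the lowest 3 of the 6 ranks for Id1, Id2, Id3 and Smad6. For Bambi, tumours 4 and 3 were lowest and 5-1 was highest.

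Other genes of the pathway were taken from 6 lists with 53 genes, of which 44 had a probe set and 33 were tested. These lists were chosen with earlier results of these data known. The tests of their genes in comparisons with tumours, here and below, are thus descriptions and not independent support. In tumours against knockout livers 0 of the 33 passed the limma test, with 8 (24.2%) at an unadjusted p under 0.05 against 10.3% of all genes, and their median log2 change was -0.21 against 0.01 for all genes. In tumours against controls 2 fell, Hamp2 and Atoh8, and in knockout livers against controls 1 rose, Fstl1. These are 6.06% and 3.03% of the 33, close to the 6.87% and 1.68% of all genes, so the counts are not a result about the lists. The list of other BMP response genes (Hamp, Hamp2, Atoh8, Msx1 and Hey1) had a median of -1.56 in tumours against knockout livers. That median is the change of Hamp itself. Msx1 and Hey1 did not share it, with changes of 0.19 ± 0.27 SE and -0.30 ± 0.35 SE. The median was -0.27 for the 8 SMADs and regulators, -0.24 for the 7 receptors and coreceptors, -0.07 for the 5 ligands, 0.07 for the 5 secreted antagonists and 0.11 for the 3 E proteins.

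Hamp encodes hepcidin, the hormone that blocks iron export, and is the best known BMP target of hepatocytes. Its main probe set measured 8222.3 to 11987.1 in the controls and 6781.1 to 11000.6 in the knockout livers. Tumours 3, 4, 5-1, 5-2, 6-1 and 6-2 measured 430.7, 2284.7, 5398.1, 4800.9, 7569 and 2663.4, so all but 6-1 were below every liver. The log2 change was -1.56 ± 0.47 SE against knockout livers (limma adjusted p = 0.236) and -1.79 ± 0.57 SE against controls (limma adjusted p = 0.0703). Against controls it passed in 6 of 28 other settings: without tumour 3 (-1.26, limma adjusted p = 0.018), 5-1 or 6-1, without tumours 3 and 4 together (-1.05, 0.0191), with the mean of its probe sets (0.0479) and with tumours of a mouse averaged (0.024). Over all 28 the adjusted p ran from 0.018 to 0.34. Without tumours 3 and 4 the change against knockout livers was -0.82 (limma adjusted p = 0.138).

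Hamp2, a near-identical neighbour of Hamp, was measured by a probe set of the kind that can match several transcripts, so its values cannot be told apart from those of Hamp with certainty, and a second Hamp2 set was dim and did not pass the filter. The main set measured 1171.9, 1329.8 and 1287.8 in the controls, 673.8, 1088.9, 1363.4, 936.6, 1298.7 and 647.2 in knockout livers 1 to 6, and 46.4, 113.9, 328.5, 337.2, 569.9 and 405.3 in the tumours. All 6 tumours lay below all 9 livers. Hamp2 fell against the controls (log2 change -2.39 ± 0.52 SE, n = 6 and 3, limma adjusted p = 0.0112), and against the knockout livers the change was -2.01 ± 0.43 SE (limma adjusted p = 0.0837). The call against controls was lost without control 2 (adjusted p = 0.056) and without control 3 (0.0554), with both groups alone in the fit (0.0659) and with the actin ratio as a covariate (0.207). Without tumours 3 and 4 the changes were -1.64 against controls (limma adjusted p = 0.00101) and -1.25 against knockout livers (0.0499), and the latter was also called with tumours of a mouse averaged (0.0213) and without tumour 6-1 (0.0147).

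Atoh8, a helix-loop-helix factor induced by BMPs that can activate the Hamp promoter, measured 42.8, 50.2 and 50.3 in the controls and 14.5, 75.2, 52.5, 61.5, 120.3 and 5.1 in knockout livers 1 to 6. Tumours lay between 2.2 and 6.6, and none was above its array's 40th percentile. Liver 6, with 5.1, was as low as the tumours, so those groups overlapped. Atoh8 fell against the controls (log2 change -2.06 ± 0.51 SE, limma adjusted p = 0.0216), and against knockout livers the change was -1.88 ± 0.42 SE (limma adjusted p = 0.1). Leaving out a single control, whichever it was, ended the call against controls (adjusted p 0.0739 to 0.0904), as did the actin ratio as a covariate (-3.37, adjusted p = 0.0939), and the call against knockout livers was gained without liver 6 (-2.24, adjusted p = 0.0193). As the tumour values are at background, this change is set partly by the constant, and ran from -3.48 to -1.20 against controls over the settings tried.

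Smad7, the inhibitor shared by the BMP and TGF-beta branches, measured 66.2, 84.1 and 93.2 in the controls, 82.4 to 148.9 in the knockout livers and 7, 29.2, 65.6, 81.5, 82.5 and 48.7 in the tumours. Tumour 3 stood lowest, -3.21 on the log2 scale against its own liver. The log2 change against knockout livers was -1.26 ± 0.34 SE (limma adjusted p = 0.168), and -0.72 without tumours 3 and 4 (limma adjusted p = 0.125). Eng, a coreceptor for BMP9 and BMP10 on endothelial cells, measured 173.4 to 236.9 in the controls, 292.8 to 386.6 in the knockout livers and 110.1 to 307.1 in the tumours. Its changes were 0.72 ± 0.23 SE in knockout livers against controls (limma adjusted p = 0.123) and -0.73 ± 0.19 SE in tumours against knockout livers (limma adjusted p = 0.154). Ppm1a, a phosphatase that acts on SMADs, measured 350.8 in tumour 5-1 and 612 to 914.7 on the other 14 arrays, with a change of -0.21 ± 0.17 SE in tumours against knockout livers.

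**Figure D4:**
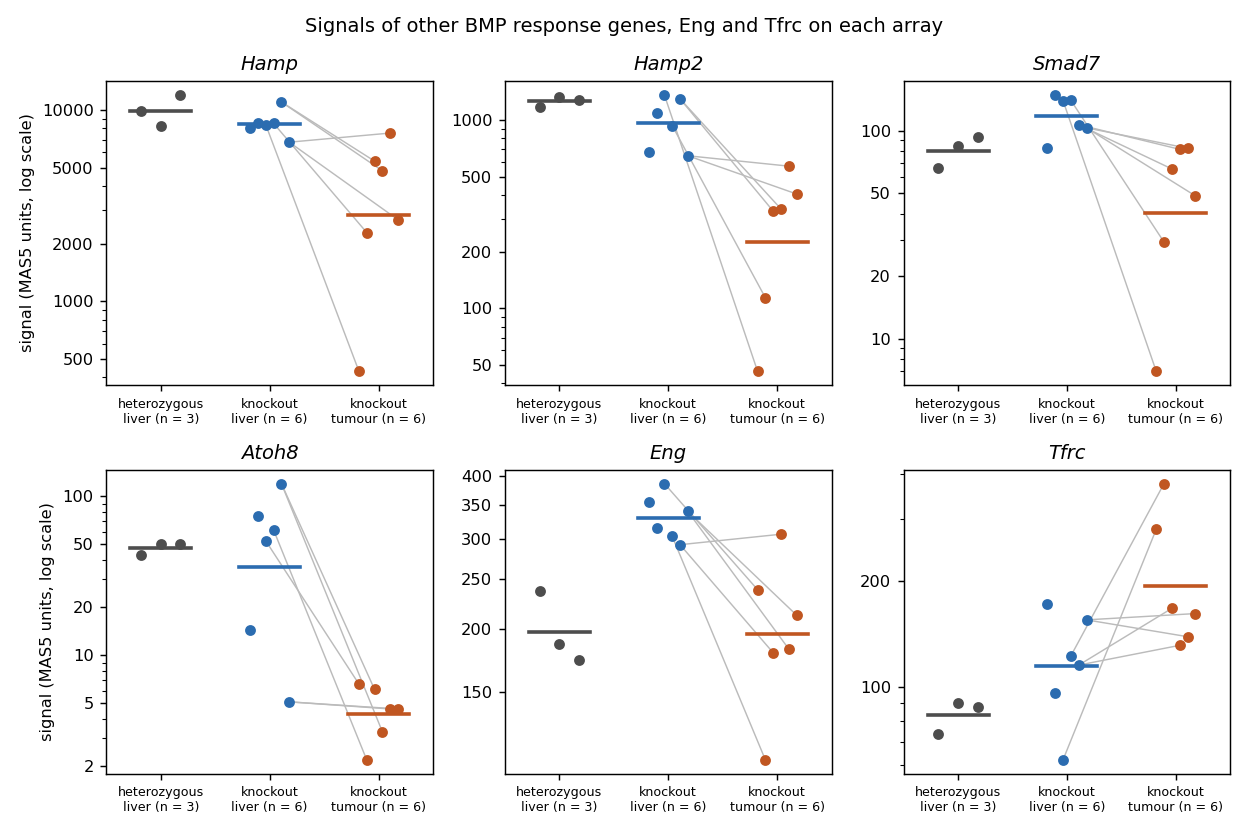
Signals of the BMP response genes Hamp, Hamp2, Smad7 and Atoh8, the coreceptor Eng and the transferrin receptor Tfrc on every array (log axis, MAS5 units), as points per sample, group geometric means as bars and grey lines joining a tumour to the liver of the same mouse. Tumour 3 is lowest for Hamp, at 430.7, and for Smad7, at 7, and all 6 tumours of Hamp2 lie below all 9 livers.

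Among the ligands, Gdf2, which encodes BMP9 and is made by stellate cells, measured 63 to 184 in the controls, 106.4 to 220 in the knockout livers and 64.8, 6.2, 10.8, 78, 141.8 and 122.8 in the tumours, where tumours 4 and 5-1 stood far below the rest. Its change of -1.27 ± 0.49 SE in tumours against knockout livers did not pass (limma adjusted p = 0.355). Bmp2 had a change of -0.63 ± 0.28 SE there (limma adjusted p = 0.452) and of -1.09 ± 0.34 SE in tumours against controls (limma adjusted p = 0.0658). Bmp6, the ligand that rises with liver iron, ran from 57.7 to 90.5 in the knockout livers and from 21 to 186.6 in the tumours, with no common direction (-0.07 ± 0.36 SE, limma adjusted p = 0.964).

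Among secreted modulators, Fstl1, a follistatin-like protein made by mesenchymal cells, measured 15.6, 17.1 and 17.6 in the controls and 41.6 to 148.5 in the knockout livers. It rose there (1.62 ± 0.38 SE on the log2 scale, n = 6 and 3, limma adjusted p = 0.0378), and no control was above its 40th percentile. On a second Fstl1 set the groups overlapped, with 4 to 15.5 in the controls and 2.8 to 77.9 in the knockout livers. Liver 5, at 2.8, was below every control there, and the mean change was 1.39. The Fstl1 rise did not pass once a single control, or one of livers 1 to 4, was left out (adjusted p 0.0689 to 0.14 in those 7 cases). It also did not pass with the larger constant (1.13, adjusted p = 0.0601), no filter (0.0516), mean probe sets (0.0924), no trend (0.0515) or the actin ratio (0.341), and was called in 15 of 27 settings, with changes from 1.13 to 2.05. The summed stellate cell and fibroblast markers moved with it, from 1336 to 1571 in the controls and from 2022 to 4555 in the knockout livers, and their part in the rise was not tested. Twsg1, a BMP-binding protein, had a change of 0.07 ± 0.16 SE in tumours against knockout livers. The E proteins that Id proteins bind, Tcf3, Tcf4 and Tcf12, had changes of 0.11 ± 0.20, 0.29 ± 0.21 and -0.05 ± 0.20 SE there, with limma adjusted p of 0.91, 0.69 and 0.958.

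**Figure D5:**
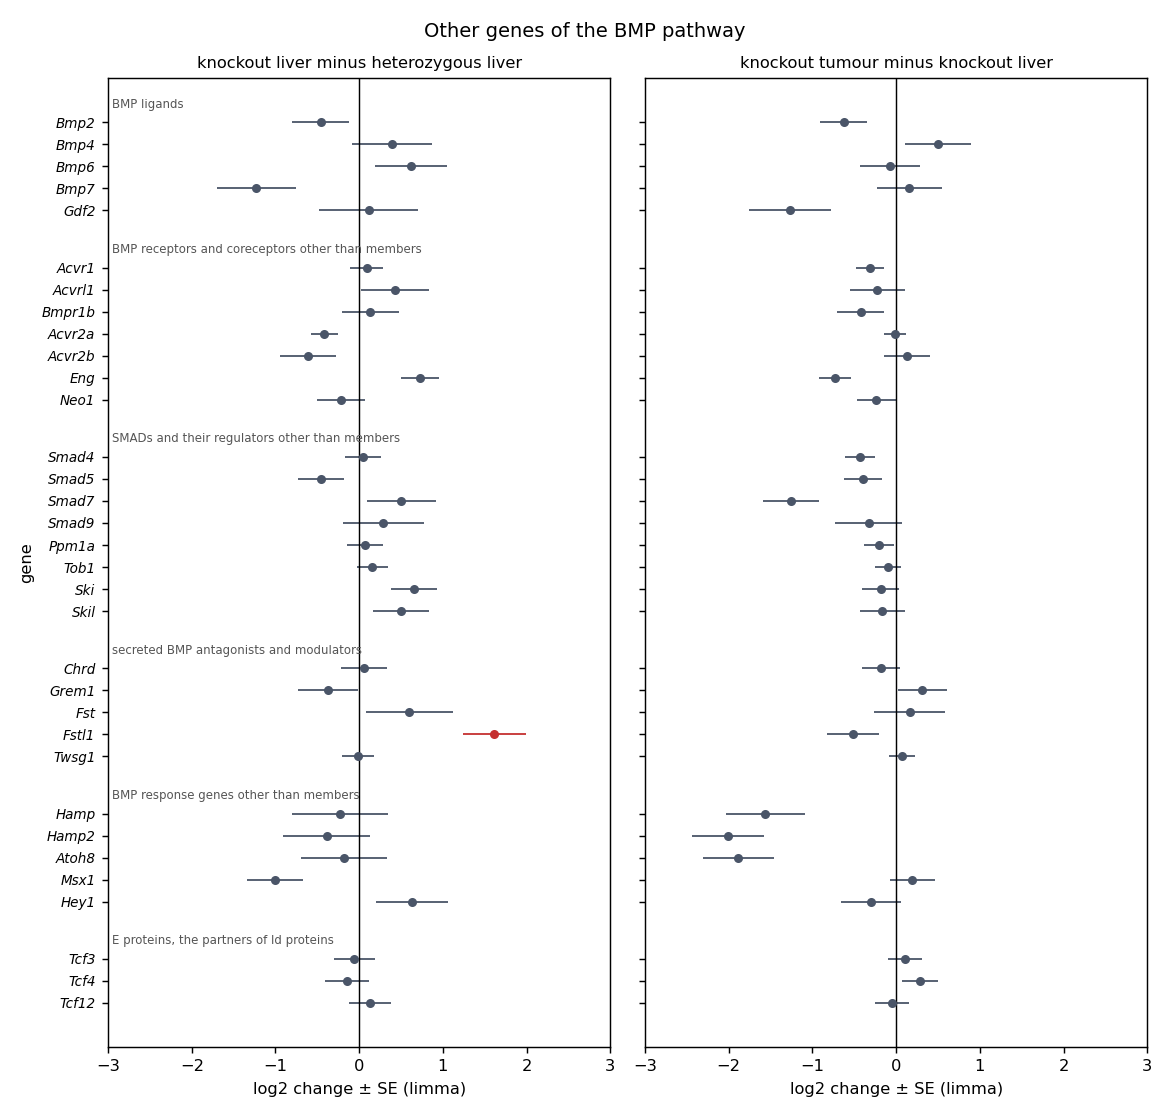
Log2 change with its standard error (horizontal axis) of the 33 tested genes on the 6 pathway lists, for knockout livers against controls (left, n = 6 and 3) and tumours against knockout livers (right, n = 6 and 6); red marks an adjusted p under 0.05. Fstl1 on the left, at 1.62, is the one red point, and Hamp, Hamp2 and Atoh8 on the right lie lowest, from -2.01 to -1.56.

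Over the 15 arrays the genes most like Id1 in pattern, by Pearson correlation of log2 values among 9379 named genes, were Id3 (r = 0.953), Akr1b8 (0.934), Hamp2 (0.893), Ntrk2 (0.885), Cldn3 (0.872), Gdpd3 (0.866), Smad7 (0.866) and Ctdsp1 (0.861). The genes most opposed were Dctn4 (-0.898), Usp14 (-0.878), the transferrin receptor Tfrc (-0.845) and Sdad1 (-0.823). These values are given as a description; the arrays share 3 groups, 4 pairs of tissues of one mouse and the tissue's cell makeup. Leaving out the 2 arrays farthest from the Id1 median, tumours 3 and 4, the values were 0.907 for Id3, 0.813 for Hamp2, 0.824 for Smad7 and -0.672 for Tfrc (13 arrays).

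Within groups, Id1 and Id3 ran together with r = 0.914 over the 6 knockout livers and 0.950 over the 6 tumours. Id1 and Hamp2 did so with 0.900 and 0.901, Id1 and Id2 with 0.762 and 0.677, and Id1 and Smad6 with 0.788 and 0.659. For Id1 with Hamp the values were 0.542 and 0.790, with Bambi 0.577 and 0.482, and with Id4 0.703 and 0.352. Hamp2 and Tfrc were picked by their correlation with Id1 over these same arrays, so their values are no independent support. Other genes picked that way were weaker within a group: Gdpd3 (0.274) and Dctn4 (-0.427) in the livers, and Ctdsp1 (0.218) in the tumours. Livers 2, 3 and 5, the high ones for Id1, were also the 3 highest for Id3 and Hamp2. Id1 and Atoh8 had r = 0.763 in the livers and -0.003 in the tumours, where Atoh8 was at background. Id1 and Tfrc had -0.880 and -0.970, and Tfrc, which carries iron into cells, measured 279.7 and 377 in tumours 3 and 4 against 131.3 to 167.1 in the other 4. A second Tfrc set measured 69.9 and 64.6 against 20.6 to 51.6. Its tumour mean was 0.19 above that of the knockout livers on the log2 scale, against 0.71 on the main set. No r over the 6 tumours, here or below, was computed without tumours 3 and 4.

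The tissue's other cell types were followed with marker lists, since endothelial and stellate cells also make Id1 and Id3. The 10 endothelial markers summed to 813 to 1110 in the controls, 957 to 1369 in the knockout livers and 469.5 to 1268 in the tumours, with tumour 4 the lowest. Against knockout livers 0 of the 10 passed the limma test in the tumours, with 4 at an unadjusted p under 0.05, against 10.3% of all genes. These were the sinusoidal marker Clec4g (-1.68 ± 0.58 SE), Oit3 (-0.90 ± 0.33 SE), Stab2 (-0.53 ± 0.20 SE) and Emcn (0.87 ± 0.38 SE). For Oit3, 1 of the 10, every tumour lay below every knockout liver, as for Id1, Id2 and Id3 and for 0.567% of all genes. The 8 stellate cell and fibroblast markers summed to 800 to 2982 in the tumours, with tumours 4 and 3 lowest. In tumours against knockout livers 6 of these 8 had a negative change and 0 passed the limma test. At an unadjusted p under 0.05 there were 2, against 10.3% of all genes: Reln (-1.30 ± 0.36 SE, limma adjusted p = 0.187) and Dcn (-1.26 ± 0.40 SE, limma adjusted p = 0.254). The 8 Kupffer cell and macrophage markers summed to 2171 to 2199 in the controls, 2806 to 4839 in the knockout livers and 1009 to 5988 in the tumours, with tumour 4 lowest. Single markers differed. In knockout livers against controls 6 of the 8 had a positive change, and 2 were called, Cd68 and Lyz2, against 1.68% of all genes. In tumours against knockout livers 4 had a negative and 4 a positive change, with 0 called. Vsig4 (-1.14 ± 0.54 SE) and Clec4f (-1.11 ± 0.66 SE) were lower there, and Cd68 (0.29 ± 0.20 SE) was higher. The sum of the 8 markers had r = 0.573 with Id1 over the 6 tumours and -0.344 over the 6 knockout livers. The 5 measured bile duct markers summed to 30.1 and 48.6 in tumours 3 and 4, 103.3 to 199.7 in the other tumours and 83.5 to 218 in the knockout livers. Over the 6 tumours, Id1 had r = 0.880 with the stellate sum, 0.859 with the bile duct sum and 0.352 with the endothelial sum; over the 6 knockout livers these were 0.431, 0.027 and 0.757. Hepatocyte markers summed to 88830 to 96836 in the controls, 68705 to 89262 in the knockout livers and 59685 to 72126 in the tumours. The part of these cell types in the Id1, Id2 and Id3 differences was not tested. The actin 3' to 5' ratio was lowest in the tumours and highest in the controls, and with it as a covariate the Id1, Id2 and Id3 changes in tumours against knockout livers were -2.11, -1.20 and -1.65. In that fit 0 members and 0 of all genes were called, with 7 and 743 at an unadjusted p under 0.05.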

How the data were processed

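The authors deposited 1 intensity for each probe set and array, on a linear scale, computed with MAS5 per the submitters' processing notes. Its version and settings are not given in the sources used here. Each array had been scaled to a like mean: without the highest and lowest 2% of values, it was 150.1 on all 15. The labels name a larger array of this family, while the table held 22690 probe sets, 64 of them controls that were left out. The probe annotation tied 20380 probe sets to 1 gene. Signals were analysed as log2(signal + 9.1), the 20th percentile of all signals. Probe sets above the 40th percentile of an array in at least 3 arrays were kept (16120, of which 14796 with 1 gene), and the set with the highest mean stood for a gene, giving 9528 genes. All 15 arrays were fitted with limma 3.58.1 (statmod 1.5.0, R 4.3.3), using lmFit, eBayes with a trend, and the animal as a random block (consensus correlation -0.0175), with Benjamini-Hochberg adjustment at 0.05. The labels pair liver and tumour of 4 mice. Deviations of same-mouse samples correlated between -0.158 and 0.0852. The members and lists were chosen with earlier results of these data known, so no member's own p is given in a comparison with tumours, nor for Id1 and Id3 in any; counts of members called there are descriptions. Genes named were all members, pathway genes called in any comparison with the brightest of each list, and the 8 genes with the highest and 4 with the lowest correlation with Id1. Smad7, Bmp2, Bmp6, Msx1, Hey1, Tcf3, Tcf4, Clec4g, Oit3, Stab2, Emcn, Reln, Dcn, Cd68, Lyz2, Vsig4 and Clec4f were named after their values were seen. The number of arrays limits the precision. The p-values weigh a difference against the spread between these arrays. At a correlation of -0.0175, tumours of 1 mouse counted almost as separate samples.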

Additional observations from a re-analysis of the deposited data

How the results depend on the processing

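The 9 members were recomputed under 29 settings, 15 of which left out 1 array; leaving out tumours 3 and 4 together was chosen after seeing the data. Of 756 values, 734 kept their sign. The other 22 were changes close to 0: Bmpr2 and Smad1 in tumours against knockout livers, Id4 and Bmpr1a in tumours against controls, and Smad6 in knockout livers against controls. Bmpr2 in tumours against controls moved to 1.64 without a constant, and Smad1 there to -1.36 with the actin ratio. Smad6 in knockout livers against controls, close to 0, was -0.33 with the actin ratio and between -0.12 and 0.24 without 1 array, turning negative without liver 3, control 1 or control 2 (-0.11, -0.12 and -0.01).

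With the fit reported, Id1 and Id3 were called in tumours against knockout livers, and in 15 and 16 of the 29 settings. Their changes ran from -2.18 to -1.54 and from -1.75 to -1.22. Both genes were chosen for this difference in these same arrays, so the counts are a description and no support.

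Counts of calls moved far more than the changes. With the animal as a fixed replicate block, tumours against knockout livers gave 0 members and 0 genes in all, with 732 at an unadjusted p under 0.05. The causes of the following moves were not tested. For knockout livers against controls the 160 calls became 994 with these groups alone, 350 with tumours of a mouse averaged, 355 without tumours 3 and 4, 21 with the actin ratio, 100 without a trend, and 34 (without control 1) to 298 (without tumour 5-1) with 1 array left out; members were 1 with these groups alone. For tumours against knockout livers the 13 became 0 with these groups alone or the actin ratio (879 and 743 at an unadjusted p under 0.05; members 0 in both), 4 without a constant, 49 averaged, 6 without a trend, 6 without tumours 3 and 4 (members 1), and 0 to 62 (without tumour 6-1) with 1 array left out, where members ran from 0 to 3. For tumours against controls the 655 became 117 with these groups alone, 21 with the actin ratio (members 0 in both) and 216 (without control 3) to 782 (without tumour 4) with 1 array left out, where members ran from 0 to 2; members were 1 without a filter, a trend or tumours 3 and 4. Pathway genes in knockout livers against controls were 0 with the larger constant, no filter, a stricter filter, mean probe sets, the actin ratio or no trend, 2 with these groups alone or without tumours 3 and 4, and 0 to 2 with 1 array left out. In tumours against knockout livers they were 1 averaged or without tumours 3 and 4, and 0 to 1 with 1 array left out. In tumours against controls they were 4 after quantile normalization, 1 with a stricter filter or these groups alone, 5 averaged or without tumours 3 and 4, 0 with the actin ratio, and 0 to 5 with 1 array left out. Signal over background limits Id4, Bambi, Bmpr2 and Atoh8.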
